A study of Mus musculus with 10 samples.

Results

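RNA of mouse marginal zone precursor B cells in which Cre had switched on both an activated NIK allele and an active, intracellular form of Notch2 was compared with that of the same kind of cell with the NIK allele alone. The comparison uses 4 of the 10 libraries of the study, chosen by genotype: 2 libraries of NF-kB-activated cells (Rosa-NIKdeltaT3flSTOP with a Cre of the B lineage), called NIK libraries here, and 2 of doubly activated cells (Rosa-NIKdeltaT3flSTOP x Rosa-Notch2ICN with the same Cre), called NIK + Notch2 libraries. Both groups share the C57BL/6 strain, the lymph node as tissue, the NIK allele and the Cre, which acts in cells of the B lineage. Both are labelled pre-malignant. No age, sex or sorting gate is given. The 4 Y-linked genes tested summed to 198 and 48 CPM in control, 487 and 523 CPM with NIK alone and 320.1 and 509 CPM with both alleles (CPM are counts scaled to a common library size). Control library 2 was the lowest, and among the compared libraries NIK + Notch2 library 1 was the lowest. The median of these genes was 48.3 and only 1.55 CPM in control libraries 1 and 2. It was 139 and 151 CPM with NIK alone and 92.4 and 143 CPM with both alleles. The Y-linked gene Ddx3y was 1.703-fold higher in NIK + Notch2 library 2 than in library 1. The part of sex in the differences between the compared groups, or in the levels set against control, was not tested. Nothing in the labels tells whether the libraries of a group are different mice, and p-values therefore reflect library spread alone, which may be technical. Levels in 2 control libraries of wild type precursor cells are given for reference. The study as a whole asked how joint NF-kB and Notch activation acts on B cell development, transformation and plasticity.

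Notch2 is a surface receptor that, when a Delta-like or Jagged ligand on a neighbouring cell binds it, is cut by ADAM proteases and by gamma-secretase. The freed intracellular part enters the nucleus, joins the DNA-binding protein RBPJ and a Mastermind coactivator, and switches on genes such as those of the Hes and Hey repressors and Dtx1. In the spleen, Notch2 signalling triggered by the ligand Delta-like 1 is what directs B cells to the marginal zone. NIK, the kinase encoded by Map3k14, drives the noncanonical NF-kB pathway, in which the precursor encoded by Nfkb2 is processed so that it can enter the nucleus with RelB; receptors for BAFF, CD40 ligand and lymphotoxin use this route.

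Estimated counts per library were 19267466 and 19247726 with NIK alone and 18791698 and 16380889 with both alleles. Across 10376 genes, log2 levels correlated at 0.991 between the 2 libraries of either group and at 0.953 to 0.968 between the groups, as a description over genes that are not independent. Libraries of a group did not stand alike on all genes: neutrophil marker RNA was high in NIK library 1, and immediate early gene RNA was high in NIK + Notch2 library 2, with the values given beside those lists. The labelled cell type was checked against its markers, 9 genes of which 1 rose and 1 fell between the compared groups. Cr2, the complement receptor CD21 of mature B cells, was high in all 4 libraries, at 2431 and 2609 CPM with NIK alone and 2940.3 and 2869 CPM with both alleles, and did not pass the test. Fcer2a, the follicular marker CD23, was at 421 and 538 CPM with NIK alone and 481 and 391 CPM with both alleles. The immature B cell marker Cd93 was at only 4.14 and 5.45 CPM with NIK alone and 7.07 and 6.87 CPM with both alleles. Ighd, the IgD heavy chain, was at 796 and 812 CPM with NIK alone and 486 and 232 CPM with both alleles (log2 -1.16 ± 0.33, adjusted p = 0.0719). Ighd did pass with DESeq2 (adjusted p = 0.0066) and with limma-voom (0.00778). It did not pass with the 4 compared libraries alone (0.264) or with the Notch-labelled and lymphoma libraries left out (0.186). Nor did it with a replicate block (0.0934). Its log2 difference was -1.80 without NIK + Notch2 library 1 and -0.72 without NIK + Notch2 library 2.

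Notch targets such as Heyl and marginal zone genes such as S1pr3 rose in the libraries with both alleles, and so did most of the immediate early genes tested. Genes that were high with NIK alone, such as Wnt10a, fell, as did 10 of 12 neutrophil markers. Between the 2 genotypes 2165 of the 15583 genes tested changed (13.9%), of which 1031 rose (6.62%) and 1134 fell (7.28%). Differences are given as log2 fold changes ± SE of NIK + Notch2 over NIK, and a gene rose or fell where edgeR's quasi-likelihood test gave a Benjamini-Hochberg adjusted p under 0.05 over all genes. Levels are in CPM, the counts of a gene scaled to a common library size by TMM, and are those of library 1 and library 2 in this order. Both NIK + Notch2 libraries lay above both NIK libraries for 29.5% of the genes tested and below both for 30.3%. The change was at least 2-fold for 295 of the genes that rose and 484 of those that fell. The share of rises among the calls, 47.62%, depends on scaling and was 33.98% (783 rose, 1521 fell) when libraries were scaled by their size alone, which moved the median of all genes by -0.07 on the log2 scale. The calls also rest on single libraries: 725 genes were called without NIK + Notch2 library 2, 1067 without NIK library 1, 975 without NIK library 2 and 1710 without NIK + Notch2 library 1. In all, 530 genes (295 rises, 235 falls) kept their call under each of 15 alternative settings. With NIK library 1 and NIK + Notch2 library 2 both left out, 434 genes were called. In that setting, added after seeing the data, 3 Notch targets rose (8 with all libraries), as did 9 marginal zone genes (11) and 8 immediate early genes (14), and 2 neutrophil markers fell (10). Only that setting ended the calls of Bcl2a1b, Blk, Cd1d1, Cdt1, Dll1, Ebi3, Gnl3, Havcr1, Hsp90ab1, Il4ra, Itgb1, Mcl1, Rel, Rgs1, Rplp0, Serinc3 and Tnf.

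**Figure D1:**
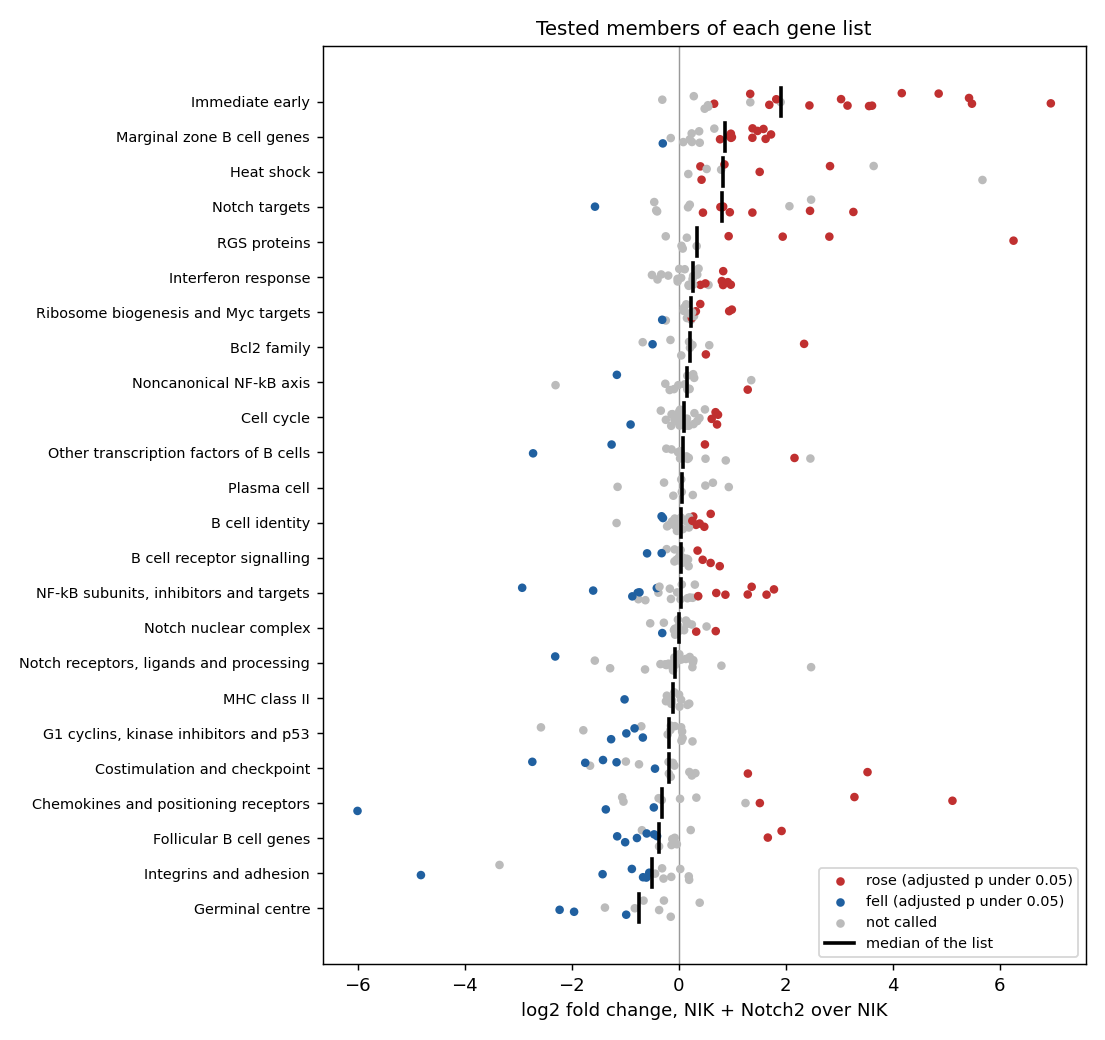
Log2 fold change of NIK + Notch2 over NIK (x axis) for the tested members of 24 gene lists (y axis), 1 point a gene, red where it rose, blue where it fell, grey where it was not called; black bars are medians. Immediate early genes have the highest median (1.90), marginal zone genes come next (0.86) and germinal centre genes have the lowest (-0.74).

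The alleles themselves were looked at first. Map3k14 was at 103 and 129.6 CPM in control, 220.0 and 217 CPM with NIK alone and 244 and 255 CPM with both alleles. It was above control in all 4 compared libraries, and the difference between the 2 compared groups did not pass the test (log2 0.19 ± 0.10, adjusted p = 0.227). Notch2 was at 652 and 689.7 CPM in control, 795 and 772 CPM with NIK alone and 702 and 753 CPM with both alleles (log2 -0.11 ± 0.08, adjusted p = 0.447). The deposited table holds a single Notch2 transcript, so message of the added intracellular part cannot be told apart from that of the endogenous gene, and its level does not check the label. Genes that Notch is known to switch on are described next. They were listed with earlier results of these data known, so they are no independent check of the label.

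Known targets of Notch, Heyl, Asb2 and Dtx1 among them, rose. Of 17 targets listed, 16 were tested, of which 8 rose and 1 fell (4 rose without NIK library 1 or NIK library 2 and 5 without NIK + Notch2 library 2, and 0 fell without NIK + Notch2 library 2), with a median of 0.80 against 0.00 over all genes. Heyl, a Hey-family repressor and a direct Notch target, had the smallest p of the list. It lies on chromosome 4 (123233556 to 123249875, GRCm38) and was at 0.43 and 0.381 CPM in control, 2.94 and 2.15 CPM with NIK alone and 23.3 and 25.6 CPM with both alleles. Both NIK + Notch2 libraries lay far above both NIK libraries, a 9.59-fold difference (log2 3.26 ± 0.17, adjusted p = 8.84e-07). Nearly all of its reads were assigned to the coding transcript Heyl-201, with 419 and 379.2 estimated counts against 54.2 and 40.8 with NIK alone. Asb2, a ubiquitin ligase component that Notch induces in blood cells, rose from 167 and 137 to 340.2 and 449.8 CPM (log2 1.37 ± 0.14, adjusted p = 1.77e-04), with 30 and 34.9 CPM in control. For Asb2 the NIK libraries were already above control, and those with both alleles were higher again. Dtx1, or Deltex, a ubiquitin ligase that is both a target and a modulator of Notch, rose from 857 and 669 to 1347 and 1609.8 CPM (log2 0.95 ± 0.12, adjusted p = 4.73e-04). Its control level, 719 and 681 CPM, overlapped that with NIK alone. Both Dtx1 and Asb2 also belong to the marginal zone list.

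Hes1, the classic Hes repressor, rose from 42.4 and 40.6 to 62.9 and 79.6 CPM (log2 0.78 ± 0.18, adjusted p = 0.0216), and its control libraries (79.8 and 51.7 CPM) overlapped those with both alleles. Hes5 rose from 5.71 and 5.08 CPM with NIK alone to 11.7 and 7.39 CPM with both alleles (log2 0.83 ± 0.25, adjusted p = 0.0456). Among targets that encode other regulators, Runx3, a transcription factor, rose from 224 and 218 to 279 and 326 CPM (log2 0.45 ± 0.09, adjusted p = 0.00484). Myc, the growth regulator, rose from 130.3 and 96.8 to 496 and 747 CPM (log2 2.45 ± 0.38, adjusted p = 0.0118), the largest called rise of the list after Heyl. Like the immediate early genes described further on, Myc was higher in NIK + Notch2 library 2 than in library 1. Tcf7, a transcription factor best known from T cells, rose from 6.76 and 8.85 CPM with NIK alone to 15.3 and 12.2 CPM with both alleles (log2 0.82 ± 0.19, adjusted p = 0.0126). Nrarp, a target that feeds back to damp Notch signalling, went the other way, at 4.4 and 5.6 CPM with NIK alone and 1.67 and 1.7 CPM with both alleles (log2 -1.57 ± 0.31, adjusted p = 0.00575). Significance was lost without NIK library 1 for Hes1 (0.0964), Hes5 (0.135), Myc (0.0581) and Tcf7 (0.112), without NIK library 2 for Hes1 (0.127), Hes5 (0.232), Runx3 (0.0554) and Myc (0.0866), without NIK + Notch2 library 1 for Hes5 (0.338) and Tcf7 (0.091) and without NIK + Notch2 library 2 for Hes1 (0.152), Runx3 (0.068), Myc (0.0644) and Nrarp (0.0509), with the adjusted p in parentheses. Other settings ended calls as well. Without the Notch-labelled and lymphoma libraries, Hes1 (adjusted p = 0.0779), Hes5 (0.0712) and Myc (0.0655) were not called. With the effective length offset, Hes1 (0.056), Hes5 (0.121) and Runx3 (0.0852) were not, and with limma-voom Hes5 (0.0957) and Tcf7 (0.0609) were not. Hes5 was also not called with library size alone (0.0628) or the 4 compared libraries alone (0.0558). Heyl, Asb2 and Dtx1 kept their call under all 15 alternative settings.

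The bases before the start of some of these genes are shown because the Notch complex binds DNA through RBPJ, whose core motif TGGGAA was searched on both strands. Promoters are the 250 bases before the start in RefSeq on GRCm38.p6, matched by symbol, and capitals mark each match. Hes5 and Runx3 are called targets with a listed window that holds a match. The promoter source held no entry for Heyl and Hes1, so these were not searched. Cd36 and Cd9 are called marginal zone genes with a match. That of Cd9 begins 211 bases before the start, and its sequence is not shown.
Hes5 (chr4:154960673-154960922, + strand): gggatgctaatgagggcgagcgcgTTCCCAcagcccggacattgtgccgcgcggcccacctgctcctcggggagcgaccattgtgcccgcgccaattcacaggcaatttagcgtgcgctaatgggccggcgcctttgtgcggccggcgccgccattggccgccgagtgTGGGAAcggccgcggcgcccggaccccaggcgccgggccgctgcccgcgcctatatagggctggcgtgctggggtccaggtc
Runx3 (chr4:135120395-135120644, + strand): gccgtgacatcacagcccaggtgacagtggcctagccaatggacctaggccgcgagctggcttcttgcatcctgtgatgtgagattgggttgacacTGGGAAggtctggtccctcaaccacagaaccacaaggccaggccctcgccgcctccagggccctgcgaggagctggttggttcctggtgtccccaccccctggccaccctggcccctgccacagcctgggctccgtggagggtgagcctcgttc
Cd36 (chr5:17835897-17836146, - strand): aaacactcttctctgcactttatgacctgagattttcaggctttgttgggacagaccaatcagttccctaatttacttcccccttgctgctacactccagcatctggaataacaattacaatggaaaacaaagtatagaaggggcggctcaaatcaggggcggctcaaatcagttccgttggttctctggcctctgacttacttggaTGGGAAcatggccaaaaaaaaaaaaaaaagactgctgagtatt
The 2 matches of Hes5 begin 226 and 82 bases before the start and lie on opposite strands, that of Runx3 begins 154 bases before and that of Cd36 43 bases before. A match is common in windows of this length: it was found in 21.59% of all listed promoters, in 24.11% of those of tested genes, in 26.1% of those that rose and in 23.39% of those that fell. Of 12 Notch targets with a promoter 4 held it, and of 15 marginal zone genes 4.

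Of 25 genes listed for receptors, ligands and processing enzymes of Notch, 24 were tested. Of these 0 rose and 1 fell (4.17%), with a median of -0.08, against 6.62% and 7.28% of all genes. Per transcript length, Notch2 was the most abundant receptor message, with a mean of 105 TPM with NIK alone and 88.9 TPM with both alleles. Notch1 came next, at 13.1 TPM with NIK alone and 20.4 TPM with both. In counts Notch1 did not pass the test (log2 0.25 ± 0.10, adjusted p = 0.125; adjusted p = 0.519 with the effective length offset). Dll1, which encodes the ligand Delta-like 1, was the gene that fell. It fell from 9.85 and 10.9 to 2.39 and 1.77 CPM (log2 -2.31 ± 0.37, adjusted p = 0.00162), against 2.15 and 3.48 CPM in control, so the libraries with both alleles overlapped control. Lfng, a sugar transferase that tunes the ligand preference of Notch receptors, was at 32.1 and 30.1 CPM with NIK alone and 12.1 and 13.5 CPM with both alleles without passing the test (log2 -1.28 ± 0.40, adjusted p = 0.0826). Lfng passed with limma-voom (adjusted p = 0.0322) and when the 4 compared libraries were fitted alone (4.01e-04). Of the 17 genes of the nuclear complex, 2 rose and 1 fell (1 rose without NIK library 1, NIK library 2 or NIK + Notch2 library 2, and 0 fell without NIK library 1, NIK library 2, NIK + Notch2 library 1 or NIK + Notch2 library 2). Maml2, a Mastermind coactivator, rose from 53.6 and 51 to 86 and 82.7 CPM (log2 0.69 ± 0.10, adjusted p = 9.47e-04). Rbpj was at 61.5 and 71.5 CPM with NIK alone and 57.2 and 52.3 CPM with both alleles (log2 -0.28 ± 0.11, adjusted p = 0.106).

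Marginal zone B cells line the blood sinus of the spleen, capture blood-borne antigen through CD21 and CD1d and hold their place by sphingosine-1-phosphate receptors. All 20 genes listed for them were tested, of which 11 rose and 1 fell, with a median of 0.86. Of the genes that rose, 9 kept their call under all 15 alternative settings, and with a library left out 9 to 12 rose. Cd1d1, which presents lipid antigens, rose from 102 and 95 to 168 and 219 CPM (log2 0.97 ± 0.16, adjusted p = 0.00477), against 179 and 126 CPM in control. Its neighbour Cd1d2, a close copy to which reads may be shared, rose from 2.04 and 2.25 to 5.96 and 8.31 CPM (log2 1.72 ± 0.23, adjusted p = 6.17e-04). S1pr3, a sphingosine-1-phosphate receptor, rose from 91 and 74.1 to 238 and 257 CPM (log2 1.58 ± 0.13, adjusted p = 3.9e-05), with 113 and 87.5 CPM in control. For S1pr3 both NIK + Notch2 libraries also exceeded both control libraries. Tlr3, a sensor of double-stranded RNA, rose from 16.2 and 15.2 to 38.1 and 43.5 CPM (log2 1.38 ± 0.16, adjusted p = 2.47e-04), against 19 and 14.2 CPM in control. Tlr3 likewise lay above control with both alleles and within its range with NIK alone. Cd9, a tetraspanin used as a marker of these cells, rose from 55 and 42.3 CPM with NIK alone to 86 and 105 CPM with both alleles (log2 0.97 ± 0.18, adjusted p = 0.00718). Marcks, an actin-linked kinase substrate, fell from 448 and 416 to 354 and 348 CPM (log2 -0.30 ± 0.07, adjusted p = 0.0196). Some of these calls ended without NIK library 1 for Marcks (0.155), without NIK library 2 for Marcks (0.0515), without NIK + Notch2 library 1 for Marcks (0.069) and without NIK + Notch2 library 2 for Cd9 (0.0594) and Marcks (0.146), with the adjusted p in parentheses.

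Like Cd1d1, some other marginal zone genes were lower with NIK alone than in both other groups. Plac8, of uncertain role in B cells, rose from 126 and 119 to 320.2 and 359 CPM (log2 1.47 ± 0.10, adjusted p = 6.25e-06), against 368 and 307 CPM in control. Its log2 difference from control was -1.46 ± 0.10 (adjusted p = 1.5e-06) with NIK alone and 0.01 ± 0.10 (adjusted p = 0.983) with both alleles. S1pr1, the receptor that lets lymphocytes leave lymphoid organs, rose from 194 and 216 to 335 and 364 CPM (log2 0.77 ± 0.09, adjusted p = 2.06e-04), with 419 and 373 CPM in control. The difference of S1pr1 from control was -0.95 ± 0.09 (adjusted p = 1.75e-05) with NIK alone and -0.18 ± 0.09 (adjusted p = 0.184) with both. Cd36, a scavenger receptor for lipids, rose from 64.6 and 46.7 to 165 and 178 CPM (log2 1.62 ± 0.21, adjusted p = 0.00262), against 142 and 92.2 CPM in control. The log2 difference of Cd36 from control was -1.07 ± 0.21 (adjusted p = 0.0122) with NIK alone and 0.55 ± 0.21 (adjusted p = 0.11) with both alleles, where both libraries lay above control. For Cd1d1, Plac8, S1pr1 and Cd36 both NIK libraries lay below all other libraries of the 3 groups. Against control, 8.72% of all genes rose and 6.60% fell with NIK alone, and 10.5% rose and 9.30% fell with both alleles. The 3 comparisons share libraries, so their values are only set side by side.

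**Figure D2:**
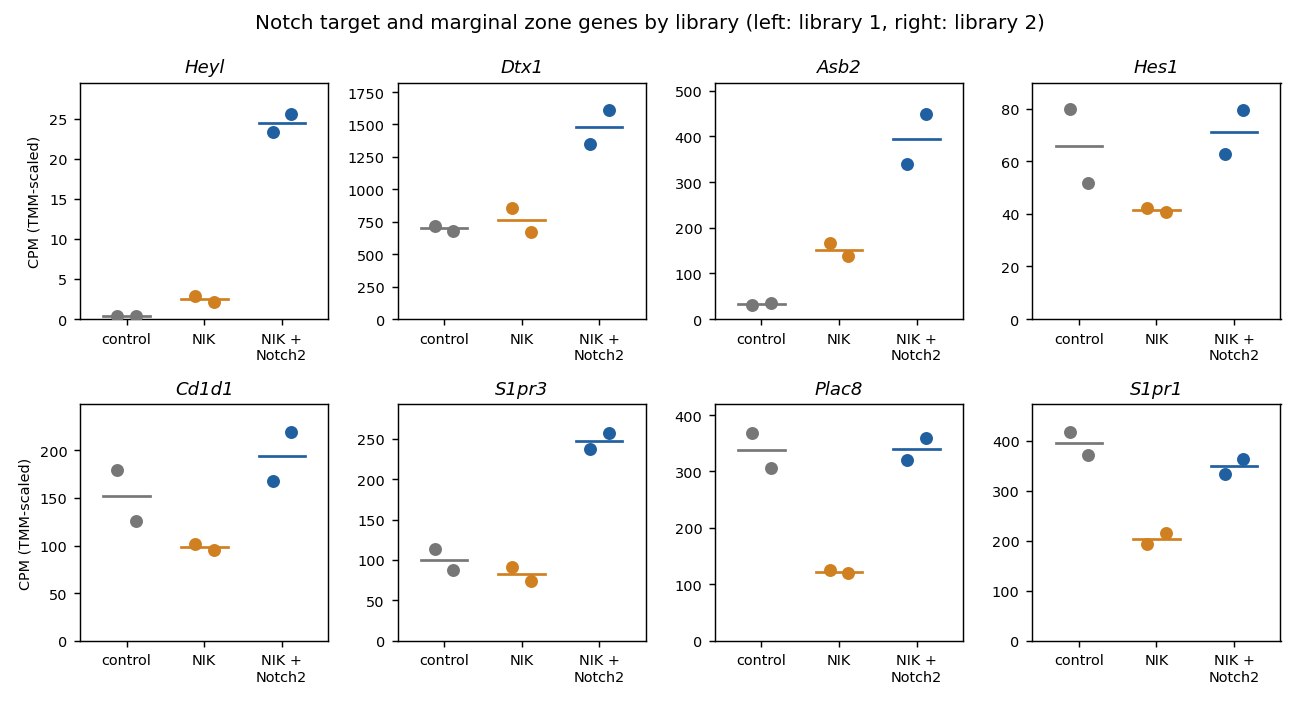
CPM (y axis, from 0) of 4 Notch targets (top) and 4 marginal zone genes (bottom) in each control, NIK and NIK + Notch2 library; points are libraries and lines group means. Heyl, Asb2, Dtx1 and S1pr3 are highest with both alleles, while Cd1d1, Plac8 and S1pr1 are lowest with NIK alone.

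Follicular B cells recirculate through lymph nodes and are the alternative fate of the same precursors. Of 15 follicular genes tested, 2 rose and 6 fell (0 rose without NIK library 1, NIK library 2 or NIK + Notch2 library 2), with a median of -0.37. Itgb7, the integrin chain used for entry into gut lymphoid tissue, fell from 127 and 146 to 60 and 63 CPM (log2 -1.15 ± 0.15, adjusted p = 9.85e-04), against 149.9 and 216 CPM in control. Il4ra, the receptor chain for interleukin 4, fell from 178 and 195 to 129 and 117 CPM (log2 -0.60 ± 0.11, adjusted p = 0.00304). Both NIK + Notch2 libraries lay below all NIK and control libraries for either gene. Cxcr5, the chemokine receptor that draws B cells into follicles, fell from 498 and 487 to 336 and 236 CPM (log2 -0.78 ± 0.15, adjusted p = 0.00957). Cd200, an inhibitory surface ligand, fell from 24.2 and 30.2 CPM with NIK alone to 14.5 and 12.6 CPM with both alleles (log2 -1.0 ± 0.16, adjusted p = 0.00184). In the opposite direction, Klf2, a factor that keeps B cells recirculating, rose from 91.8 and 77.4 to 222 and 419 CPM (log2 1.92 ± 0.38, adjusted p = 0.0268). So did Ccr7, the lymph node homing receptor gene, which rose from 59.2 and 73.6 to 161 and 259.6 CPM (log2 1.66 ± 0.38, adjusted p = 0.0403). Klf2 and Ccr7 were both higher in NIK + Notch2 library 2 than in library 1. Calls were lost without NIK library 1 for Klf2 (0.121) and Ccr7 (0.197), without NIK library 2 for Klf2 (0.164) and Ccr7 (0.153) and without NIK + Notch2 library 2 for Klf2 (0.0658) and Ccr7 (0.186), with the adjusted p in parentheses. Another setting ended the call for Cd200 (effective length offset, 0.562). Fitting the 4 compared libraries alone ended those of Cxcr5 (0.0507), Klf2 (0.1095) and Ccr7 (0.0687). Klf2 (0.0968) and Ccr7 (0.126) also lost theirs with the Notch-labelled and lymphoma libraries left out.

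RGS proteins shorten signalling by the G proteins that chemokine receptors use, and of 9 genes tested 4 rose and 0 fell. Rgs1 rose from 1.94 and 2.25 to 128 and 194 CPM (log2 6.25 ± 0.67, adjusted p = 0.00341), with 11.8 and 2.72 CPM in control. This was a 76.4-fold difference. Rgs10 rose from 6.92 and 7.28 to 26.2 and 28.4 CPM (log2 1.94 ± 0.15, adjusted p = 1.24e-05), against 26.3 and 18.9 CPM in control. For Rgs10 both NIK libraries were the lowest of the 3 groups. Rgs3 rose from 41.7 and 46.3 CPM with NIK alone to 79.7 and 88.3 CPM with both alleles (log2 0.93 ± 0.11, adjusted p = 2.06e-04). Grk3, a kinase that turns off G-protein-coupled receptors, rose from 34.6 and 33.8 to 131 and 169.7 CPM (log2 2.13 ± 0.11, adjusted p = 8.84e-07), against 19.4 and 19.6 CPM in control. Its adjusted p equalled that of Heyl. Among 13 chemokines and positioning receptors, 3 rose and 3 fell (1 rose without NIK library 1 or NIK library 2, and 1 fell without NIK library 1, NIK library 2 or NIK + Notch2 library 2). Gpr174, a receptor for lysophosphatidylserine, fell from 122 and 157 to 57.2 and 51.3 CPM (log2 -1.36 ± 0.13, adjusted p = 5.08e-05). The inflammatory chemokine gene Ccl3 rose from 0.105 and 0.21 to 4.29 and 7.07 CPM (log2 5.11 ± 0.69, adjusted p = 5.57e-04). Of 14 integrins and adhesion genes, 0 rose and 6 fell (3 fell without NIK library 2 or NIK + Notch2 library 2), with a median of -0.50. Among them was Itgam, an integrin of myeloid cells, which fell from 14.4 and 6.55 to 0 and 0.785 CPM (log2 -4.82 ± 0.89, adjusted p = 0.0161). Neutrophil and macrophage markers, given further on, were lower in the same libraries, and their part in this fall was not tested. Its log2 difference was -3.73 without NIK + Notch2 library 1, which has no count. Itgam lost its call when only the 4 compared libraries were fitted (adjusted p = 0.0832) or when the Notch-labelled and lymphoma libraries were left out (0.0546). Itgb1, the beta chain shared by many matrix-binding integrins, fell from 89.9 and 75.4 CPM with NIK alone to 55.6 and 52.9 CPM with both alleles (log2 -0.61 ± 0.11, adjusted p = 0.00357). Cd44, a receptor for hyaluronan, fell from 70.5 and 65.1 to 44.3 and 48.2 CPM (log2 -0.55 ± 0.09, adjusted p = 0.00149). Against 6.62% of all genes, 44.4% of the RGS genes, 23.1% of the chemokines and positioning receptors and 0% of the adhesion genes rose. Against 7.28% of all genes, 0%, 23.1% and 42.9% of these lists fell.

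Noncanonical NF-kB genes changed about as often as all genes. Of 15 tested, 1 rose and 1 fell. Nfkb2 was at 619 and 619.8 CPM with NIK alone and 654 and 683 CPM with both alleles (log2 0.11 ± 0.09, adjusted p = 0.481), both above its 288 and 355 CPM in control. Relb was not called either, at 128 and 125 CPM with NIK alone and 127 and 155 CPM with both alleles. Birc3, an inhibitor of apoptosis, was at 310.2 and 324 CPM with NIK alone and 346 and 362 CPM with both alleles and was not called. Tnfrsf13c, which encodes the BAFF receptor, was the member that fell. It fell from 227 and 249.8 to 115 and 98.8 CPM (log2 -1.16 ± 0.09, adjusted p = 1.41e-05), with 407 and 444 CPM in control, so that both alleles together went with the lowest level of the 3 groups. Tnfrsf12a, a receptor for TWEAK, was the member that rose, from 0.419 and 0.629 to 1.39 and 1.18 CPM. DESeq2 (adjusted p = 0.071) and limma-voom (0.18) did not call it. Tnfrsf12a lost its call without NIK library 1, NIK library 2, NIK + Notch2 library 1 or NIK + Notch2 library 2 (adjusted p = 0.0887 to 0.234).

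Of 28 further NF-kB subunits, inhibitors and targets, 27 were tested, of which 7 rose and 6 fell, and 4 of the rises and 5 of the falls kept their call under all 15 alternative settings. Rel, the c-Rel subunit, rose from 100.3 and 102 to 155 and 216 CPM (log2 0.87 ± 0.15, adjusted p = 0.0048). Tnfaip3, the inhibitor A20, rose from 147 and 146 to 391 and 613 CPM (log2 1.78 ± 0.19, adjusted p = 6.02e-04), against 76.5 and 64.2 CPM in control. Irf4, a transcription factor of activated B cells and plasma cells, rose from 195 and 211 to 426 and 565 CPM (log2 1.29 ± 0.14, adjusted p = 2.1e-04), against 242 and 197 CPM in control. For Irf4 the NIK libraries overlapped control and those with both alleles were above it. Bcl2a1b, a survival factor with near-identical copies, rose from 55.4 and 54.5 CPM with NIK alone to 88.5 and 89.9 CPM with both alleles (log2 0.70 ± 0.11, adjusted p = 0.00128). Bcl2, the survival factor, fell from 289 and 288 to 169 and 169.6 CPM (log2 -0.77 ± 0.08, adjusted p = 9.9e-05), with 219.9 and 197 CPM in control. Lta, which encodes lymphotoxin, fell from 75.5 and 79.1 to 43.3 and 41.4 CPM (log2 -0.87 ± 0.12, adjusted p = 7.99e-04). Tnf, its neighbouring cytokine gene, fell from 21.5 and 25.7 to 9.08 and 6.41 CPM (log2 -1.60 ± 0.26, adjusted p = 0.00304). Ebi3, a subunit of cytokines of the interleukin 12 family, fell from 17.4 and 16.2 CPM with NIK alone to 10.4 and 9.75 CPM with both alleles (log2 -0.74 ± 0.13, adjusted p = 0.00368). For Bcl2, Lta, Tnf and Ebi3 the libraries with both alleles lay below control as well as below NIK alone. Ccl22, a chemokine that draws T cells, was low throughout and fell from 1.36 and 1.47 to 0.278 and 0.0654 CPM (log2 -2.93 ± 0.44, adjusted p = 0.00123). Ccl22 was at a log2 difference of -4.31 without NIK + Notch2 library 1 and -2.32 without NIK + Notch2 library 2. Of the 11 Bcl2 family genes, 10 were tested, of which 2 rose and 1 fell (1 rose without NIK library 2 or NIK + Notch2 library 2). Pmaip1, the pro-death factor Noxa, rose from 17.8 and 20 to 79.6 and 112 CPM (log2 2.34 ± 0.26, adjusted p = 9.58e-04). Mcl1, a survival factor, fell from 877 and 927 CPM with NIK alone to 678 and 606 CPM with both alleles (log2 -0.49 ± 0.08, adjusted p = 0.00231). Of the NF-kB subunits, inhibitors and targets tested, 25.9% rose and 22.2% fell. Of the Bcl2 family genes tested, 20% rose and 10% fell, against 6.62% and 7.28% of all genes.

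Several genes were high with NIK alone and low in both other groups. Wnt10a, a secreted Wnt ligand, fell from 48.4 and 39.1 to 1.78 and 0.85 CPM (log2 -5.02 ± 0.42, adjusted p = 9.92e-05), against 3.57 and 1.69 CPM in control. Wnt10a was at a log2 difference of -5.68 without NIK + Notch2 library 1. Wipf3, an actin regulator, fell from 9.38 and 4.98 to 0.111 and 0 CPM (adjusted p = 1.16e-04), against 0.307 and 0.0544 CPM in control. Its counts of 274 with NIK alone and 2 with both alleles gave a ratio of 119.3 (exact 95% interval 32.72 to 990.4, counting error only). The following genes were chosen after their values were seen, among those that kept their call under all 15 alternative settings. Ehf, an ETS factor of epithelia, fell from 10.9 and 8.17 to 0.278 and 0.393 CPM (log2 -4.82 ± 0.36, adjusted p = 1.09e-05), against 0.307 and 0.544 CPM in control. Gpr55, a lipid receptor, fell from 29.7 and 27 to 3.17 and 3.01 CPM (log2 -3.19 ± 0.15, adjusted p = 5.62e-07), with 8.67 and 8.43 CPM in control. Gpr55 had the smallest p of all 15583 genes, and the levels with both alleles lay below control. For other genes the level with both alleles stayed above control. Ttn, the muscle protein titin, fell from 197 and 187 to 45.1 and 44.7 CPM (log2 -2.10 ± 0.14, adjusted p = 1.11e-05), against 2.09 and 2.12 CPM in control. Cnr1, a cannabinoid receptor, fell from 146 and 192 to 50 and 36.7 CPM (log2 -1.96 ± 0.16, adjusted p = 2.64e-05), against 0.246 and 0.218 CPM in control. St8sia6, a sialyltransferase, fell from 199 and 214 to 73.4 and 58.9 CPM (log2 -1.64 ± 0.11, adjusted p = 5.71e-06), with 30.1 and 27.2 CPM in control. The level of Ttn was 4.28-fold lower than with NIK alone, and its log2 difference from control was still 4.41 ± 0.20 (adjusted p = 1.85e-07).

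**Figure D3:**
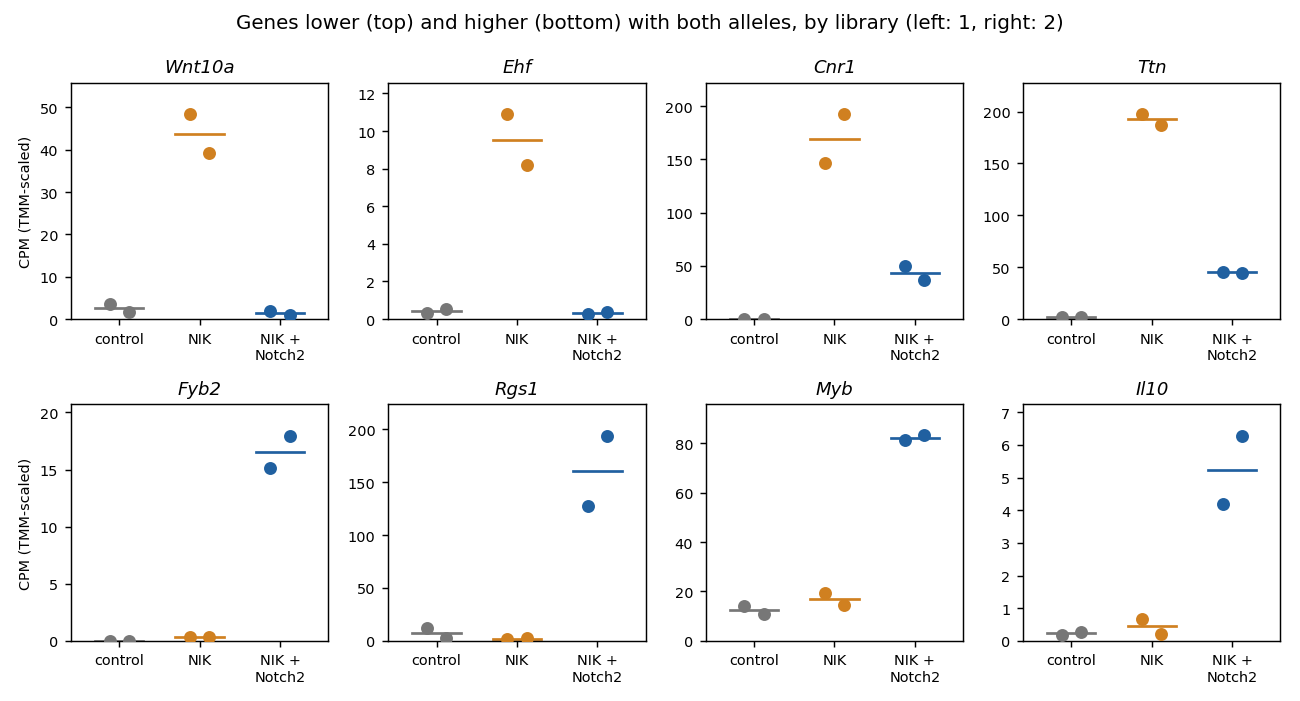
CPM (y axis, from 0) in each control, NIK and NIK + Notch2 library of 4 genes that fell (top) and 4 that rose (bottom) when the Notch2 allele was added; points are libraries and lines group means. Wnt10a and Ehf are high with NIK alone, Cnr1 and Ttn stay above control with both alleles, and Fyb2, Rgs1, Myb and Il10 are high with both alleles.

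Among the 12 largest rises by the naming rule were Fosb, Plk2, Rgs1, Fyb2, Atf3, Nr4a2, Dusp18, Ccl3, Drd5, Klf4, Fam149a and Ret, of which 4 are immediate early genes. Klf4 lost its call without NIK library 1 or NIK library 2 (adjusted p = 0.0722 to 0.0723). Fyb2, an adaptor protein, had no count in control and rose from 0.315 and 0.314 to 15.1 and 17.9 CPM (log2 5.68 ± 0.34, adjusted p = 5.71e-06). Drd5, a dopamine receptor, rose from 0.367 and 0.105 to 5.9 and 8.96 CPM (log2 4.93 ± 0.37, adjusted p = 1.09e-05), against 2.46 and 2.07 CPM in control. Ret, a receptor tyrosine kinase, rose from 0.734 and 0.105 to 11.1 and 7 CPM (log2 4.41 ± 0.74, adjusted p = 0.00319). Fam149a rose from 0.262 and 0.419 CPM with NIK alone to 6.51 and 9.42 CPM with both alleles (log2 4.51 ± 0.34, adjusted p = 1.09e-05). These 4 genes were at or near 0 with NIK alone. Dusp18, a phosphatase, rose from 0.105 and 0.367 to 5.01 and 12.4 CPM (log2 5.16 ± 0.68, adjusted p = 5.69e-04). Plk2, a kinase of stressed cells, rose from 0.315 and 0.157 to 16.8 and 33.5 CPM (log2 6.69 ± 1.08, adjusted p = 0.0124), against 17.6 and 4.35 CPM in control. Plk2 lost its call without NIK library 1 or NIK library 2 (adjusted p = 0.0952 to 0.108). Ret was at a log2 difference of 6.34 without NIK library 1 and 3.60 without NIK library 2. Drd5 was at a log2 difference of 6.04 without NIK library 1 and 4.30 without NIK library 2. Dusp18 was at a log2 difference of 4.53 without NIK library 1, 6.28 without NIK library 2 and 4.37 without NIK + Notch2 library 2. Drd5, Ret, Fam149a and Dusp18 stayed low in absolute terms, at no more than 12.4 CPM in any of the 4 libraries. Myb, a transcription factor of blood progenitors chosen after its values were seen, rose from 19.5 and 14.4 to 81.3 and 83.5 CPM (log2 2.28 ± 0.14, adjusted p = 5.71e-06), with 14 and 10.8 CPM in control.

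Immediate early genes, which cells switch on within minutes of antigen receptor or growth signals, had the highest median of the 24 lists. Of 21 tested, 14 rose and 0 fell, with a median of 1.90. Their summed level was 3221 and 2110.0 CPM in control, 1171 and 1252 CPM with NIK alone and 4526 and 7405 CPM with both alleles. Nr4a1, the nuclear receptor Nur77 that antigen receptor signals induce, rose from 39.8 and 36.6 to 248 and 431 CPM (log2 3.15 ± 0.32, adjusted p = 0.00179), against 125 and 85.3 CPM in control. Atf3, a stress-induced factor, rose from 1.52 and 1.15 to 44 and 75.8 CPM (log2 5.48 ± 0.39, adjusted p = 2.97e-05), against 1.23 and 0.435 CPM in control. Atf3 was low in both control libraries. Egr2 and Egr3, factors downstream of antigen receptor signals, rose as well. Egr2 rose from 6.92 and 6.23 to 22 and 24.5 CPM (log2 1.82 ± 0.21, adjusted p = 1.77e-04), and Egr3 rose from 36.6 and 32.7 CPM with NIK alone to 56.4 and 53.1 CPM with both alleles (log2 0.66 ± 0.11, adjusted p = 0.00251). Klf6 rose from 57.5 and 65.5 to 376 and 631 CPM (log2 3.03 ± 0.28, adjusted p = 0.00102). Zfp36, which speeds decay of cytokine messages, rose from 206 and 239 to 599.6 and 838 CPM (log2 1.69 ± 0.15, adjusted p = 8.5e-05). For Klf6 and Zfp36 both libraries with both alleles lay above both of NIK alone and both control libraries. AP-1 is a pair of Fos and Jun proteins. Fos rose from 18.9 and 23.2 CPM with NIK alone to 286 and 470.0 CPM with both alleles (log2 4.17 ± 0.58, adjusted p = 0.0101), Fosb rose from 5.03 and 7.86 to 556 and 1042 CPM (log2 6.95 ± 1.09, adjusted p = 0.0156) and Jun rose from 68.8 and 93 to 725 and 1252 CPM (log2 3.61 ± 0.51, adjusted p = 0.00999). With the Notch-labelled and lymphoma libraries left out, Fos (adjusted p = 0.0587), Fosb (0.0816) and Jun (0.0611) were not called. Significance was lost without NIK library 1 for Fos (0.0811), Fosb (0.111) and Jun (0.0768), without NIK library 2 for Fos (0.0759), Fosb (0.108) and Jun (0.0654) and without NIK + Notch2 library 2 for Fos (0.0571) and Fosb (0.0779), with the adjusted p in parentheses.

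The same genes varied between libraries of a group. Of the 14 that rose, 13 were higher in NIK + Notch2 library 2 than in library 1, with a median ratio of 1.725, and control library 1 exceeded control library 2 by a median ratio of 2.026. With a library left out, 7 to 16 rose: 7 without either NIK library, 10 without NIK + Notch2 library 2 and 16 without NIK + Notch2 library 1. Egr2, Egr3, Nr4a1, Nr4a2, Atf3, Klf6 and Zfp36 kept their call under all 15 alternative settings. Heat shock genes were also higher: of 10 tested, 5 rose and 0 fell. Their summed level was 3983 and 2460.0 CPM in control, 2123 and 2546 CPM with NIK alone and 3775 and 4520.0 CPM with both alleles. The chaperone gene Hsp90aa1 rose from 281 and 349 CPM with NIK alone to 782 and 1012 CPM with both alleles (log2 1.51 ± 0.29, adjusted p = 0.0211). With the Notch-labelled and lymphoma libraries left out, Hsp90aa1 was not called (adjusted p = 0.0923). Hsp90aa1 lost its call without NIK library 1, NIK library 2 or NIK + Notch2 library 2 (adjusted p = 0.0778 to 0.119). With a library left out, 0 to 5 of the heat shock genes rose, 0 of them without NIK library 1 or without NIK + Notch2 library 2. Whether the immediate early and heat shock values have a common source was not tested. The promoter of Dusp1, a phosphatase gene of the list, is shown because it holds the cyclic AMP response element TGACGTCA, to which CREB and ATF factors bind.
Dusp1 (chr17:26508473-26508722, - strand): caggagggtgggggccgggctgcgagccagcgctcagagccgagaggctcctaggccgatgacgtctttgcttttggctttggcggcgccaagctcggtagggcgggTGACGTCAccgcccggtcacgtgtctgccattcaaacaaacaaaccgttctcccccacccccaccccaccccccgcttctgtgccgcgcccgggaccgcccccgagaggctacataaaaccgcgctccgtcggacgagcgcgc
The match begins 143 bases before the start. Dusp1 itself rose from 34.1 and 27.9 to 261 and 469 CPM (log2 3.56 ± 0.57, adjusted p = 0.0161). With the Notch-labelled and lymphoma libraries left out, Dusp1 was not called (adjusted p = 0.0801). Dusp1 lost its call without NIK library 1, NIK library 2 or NIK + Notch2 library 2 (adjusted p = 0.0803 to 0.117). This motif was found in 1.546% of all listed promoters, 2.824% of those of tested genes, 4.035% of those that rose, 1.037% of those that fell and 2 of 18 immediate early genes.

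**Figure D4:**
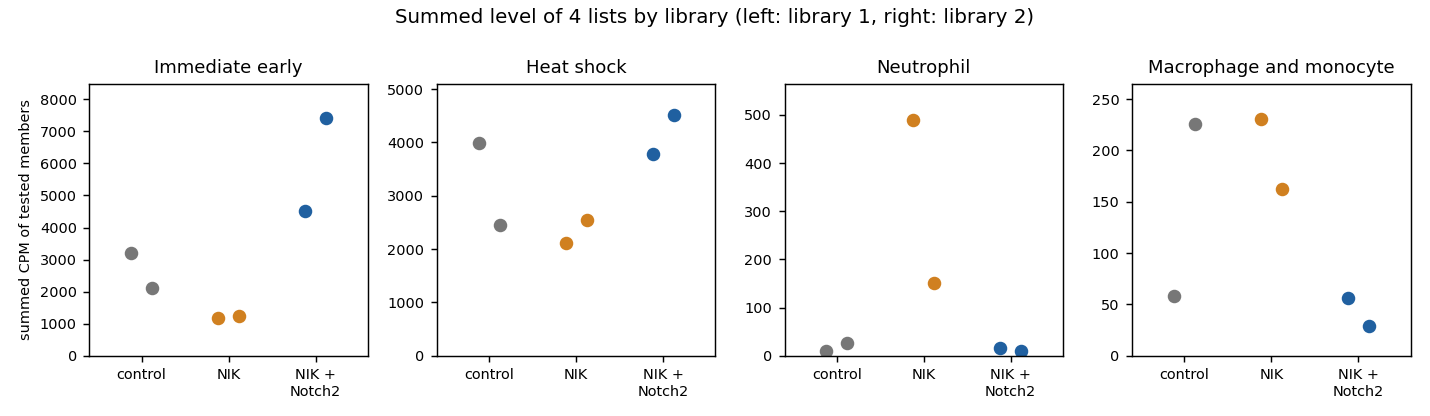
Summed CPM (y axis, from 0) of the tested members of the immediate early, heat shock, neutrophil and macrophage lists in each library. Immediate early genes are highest in NIK + Notch2 library 2, and neutrophil genes are highest in NIK library 1.

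Genes of B cell identity had a median near 0. Of 23 tested, 6 rose and 2 fell (2 rose without NIK library 1 and 1 without NIK + Notch2 library 2, and 0 fell without NIK library 1 or NIK library 2 and 1 without NIK + Notch2 library 2), with a median of 0.04. Blk, a Src-family kinase of the B cell receptor, rose from 618 and 584 to 823 and 850.3 CPM (log2 0.48 ± 0.08, adjusted p = 0.00159). Ebf1, a founding B lineage factor, rose from 256 and 274 CPM with NIK alone to 337 and 358 CPM with both alleles (log2 0.39 ± 0.08, adjusted p = 0.00894). Bcl11a, another, rose from 247 and 242 to 344 and 395 CPM (log2 0.60 ± 0.11, adjusted p = 0.00498). For Ebf1 and Bcl11a the NIK libraries lay below all control libraries and those with both alleles overlapped them. Some of these calls ended without NIK library 1 for Ebf1 (0.0949) and without NIK + Notch2 library 2 for Ebf1 (0.0897) and Bcl11a (0.0604), with the adjusted p in parentheses. Of 19 genes of B cell receptor signalling, 4 rose and 2 fell (1 rose without NIK library 1 and 2 without NIK library 2 or NIK + Notch2 library 2, and 1 fell without NIK library 1 and 0 without NIK + Notch2 library 2). Among 17 other transcription factors, 2 rose and 2 fell (0 rose without NIK library 2 and 1 without NIK + Notch2 library 1). Id3, an inhibitor of E proteins, fell from 28.8 and 30.1 to 13 and 11.6 CPM (log2 -1.26 ± 0.15, adjusted p = 2.92e-04), with 33.3 and 40.9 CPM in control. Zbtb32, a repressor linked to B1 and memory cells, fell from 7.44 and 5.76 to 0.947 and 1.05 CPM (log2 -2.72 ± 0.28, adjusted p = 9.16e-05), against 1.84 and 2.28 CPM in control. Bhlhe40 rose from 81.3 and 74.5 to 261 and 436 CPM (log2 2.16 ± 0.30, adjusted p = 0.00589). Bhlhe40 lost its call without NIK library 2. Of all genes tested, 6.62% rose and 7.28% fell. These shares were 26.1% and 8.70% for B cell identity and 21.1% and 10.5% for B cell receptor signalling. They were 11.8% each way for the other transcription factors.

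Of 18 costimulation and checkpoint genes, 2 rose and 5 fell (3 fell without NIK library 2 or NIK + Notch2 library 2). Cd274, which encodes the T cell inhibitor PD-L1, rose from 146 and 154 to 317 and 417 CPM (log2 1.29 ± 0.13, adjusted p = 1.52e-04), against 109.7 and 86.9 CPM in control. Il10, the anti-inflammatory cytokine of regulatory B cells, rose from 0.681 and 0.21 to 4.18 and 6.28 CPM (log2 3.53 ± 0.37, adjusted p = 9.87e-05), with 0.184 and 0.272 CPM in control. For both genes the libraries with both alleles lay above all others, though Il10 stayed low. Pdcd1lg2, which encodes PD-L2, the other ligand of PD-1, went down, at 20.2 and 21.7 CPM with NIK alone and 9.08 and 9.62 CPM with both alleles (log2 -1.16 ± 0.23, adjusted p = 0.0057). Vsir, an inhibitory ligand gene, fell from 18.8 and 14.5 CPM with NIK alone to 6.01 and 6.48 CPM with both alleles (log2 -1.42 ± 0.18, adjusted p = 4.16e-04). Havcr1, which encodes TIM-1, a marker of regulatory B cells, fell from 5.4 and 3.35 to 1.06 and 0.196 CPM (log2 -2.74 ± 0.51, adjusted p = 0.00516). Pdcd1lg2 lost its call without NIK library 2 (adjusted p = 0.0546). Havcr1 was at a log2 difference of -4.44 without NIK + Notch2 library 1 and -2.04 without NIK + Notch2 library 2. Il10 was at a log2 difference of 4.58 without NIK library 1 and 2.91 without NIK library 2. Of 12 MHC class II genes, 0 rose and 1 fell: H2-Eb2 fell from 238 and 285 to 145 and 113 CPM (log2 -1.01 ± 0.12, adjusted p = 2.93e-04), against 156 and 151 CPM in control. Of 25 interferon response genes, 7 rose and 0 fell (4 rose without NIK library 1 or NIK + Notch2 library 2, and 2 fell without NIK library 1), with a median of 0.26. Stat2, a transducer of interferon signals, rose from 115 and 136 to 219 and 226 CPM (log2 0.83 ± 0.08, adjusted p = 8.5e-05), against 214 and 216 CPM in control. Gbp2, a guanylate-binding protein, rose from 38.6 and 29.7 to 60.3 and 61.2 CPM (log2 0.83 ± 0.11, adjusted p = 4.73e-04). Zbp1, a nucleic acid sensor, rose from 42.6 and 50.2 CPM with NIK alone to 84.3 and 77.5 CPM with both alleles (log2 0.80 ± 0.10, adjusted p = 2.5e-04). Of all genes tested, 6.62% rose and 7.28% fell. These shares were 11.1% and 27.8% for costimulation and checkpoint genes and 0% and 8.33% for MHC class II. For interferon response genes they were 28% and 0%.

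Of the cell cycle genes tested, 12.9% rose and 3.23% fell, against 6.62% and 7.28% of all genes. Of 31 cell cycle genes, 4 rose and 1 fell (1 rose without NIK library 2 and 2 without NIK + Notch2 library 2, and 0 fell without NIK library 1 or NIK + Notch2 library 2), with a median of 0.10. Cdt1, a replication licensing factor, rose from 46.9 and 46.7 to 68 and 85.8 CPM (log2 0.71 ± 0.12, adjusted p = 0.00241), with 68.5 and 84.3 CPM in control. Pcna, the sliding clamp of replication, rose from 94.5 and 86.3 to 128 and 149 CPM (log2 0.61 ± 0.13, adjusted p = 0.0112), against 177 and 128 CPM in control, so that for both genes the NIK libraries were the lowest of the 3 groups. Of 16 genes of G1 cyclins, their inhibitors and the p53 pathway, 0 rose and 4 fell (2 fell without NIK library 1 or NIK library 2 and 1 without NIK + Notch2 library 2). Ccnd2, the main G1 cyclin of B cells, fell from 146 and 124 to 82.4 and 54.4 CPM (log2 -0.98 ± 0.17, adjusted p = 0.00542). Pcna lost its call without NIK library 2 or NIK + Notch2 library 2 (adjusted p = 0.097 to 0.109). Another setting ended the call for Ccnd2 (4 compared libraries alone, 0.0781). Of 16 genes of ribosome biogenesis and Myc targets, 5 rose and 1 fell (2 rose without NIK library 1, 1 without NIK library 2 or NIK + Notch2 library 2 and 3 without NIK + Notch2 library 1, and 0 fell without NIK library 1, NIK + Notch2 library 1 or NIK + Notch2 library 2); Gnl3, a nucleolar GTPase, rose from 51 and 52.6 to 93 and 113 CPM (log2 0.99 ± 0.14, adjusted p = 0.00105). Of 10 germinal centre genes, 0 rose and 3 fell (0 fell without NIK library 2 or NIK + Notch2 library 2 and 1 without NIK + Notch2 library 1), and of 9 plasma cell genes tested edgeR called none, with 3 at an unadjusted p under 0.05, 2 called by DESeq2 and 1 by limma-voom. Fas, the death receptor gene of the germinal centre list, fell from 24.4 and 33.1 to 14.4 and 14.7 CPM (log2 -0.98 ± 0.20, adjusted p = 0.00652), against 5.1 and 5.17 CPM in control. Fas lost its call without NIK library 2 or NIK + Notch2 library 2 (adjusted p = 0.0643 to 0.116).

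Of the 12 largest falls by the naming rule, 10 are genes of neutrophils and other myeloid cells (Camp, Cd177, Chil3, Lcn2, Ngp, S100a8, Ltf, S100a9, Slpi and Mpo), and the other 2 are Wipf3 and Wnt10a. Of the 10, only Camp (adjusted p = 0.0382) and Slpi (0.00213) were called when the 4 compared libraries were fitted alone. The rest were at 0.086 (Chil3) to 0.2065 (Cd177). With limma-voom, only Camp was called (adjusted p = 0.0181), and the others were at 0.0615 (Cd177) to 0.128 (Ltf). Of the 10, Camp kept its call with any 1 library left out. Cd177 and Mpo lost theirs without NIK + Notch2 library 1 or library 2 (adjusted p = 0.0686 to 0.114), and Chil3 also without NIK library 1 (0.0511 to 0.205). Lcn2, Ngp, S100a8, Ltf, S100a9 and Slpi lost theirs without any 1 of the 4 libraries (0.0519 to 0.233). Of 12 neutrophil markers, 0 rose and 10 fell (4 fell without NIK library 1, 6 without NIK library 2, 5 without NIK + Notch2 library 1 and 3 without NIK + Notch2 library 2), with a median of -6.27. Their summed level was 9.9 and 26.9 CPM in control, 489.7 and 151 CPM with NIK alone and 16.6 and 10.5 CPM with both alleles. Camp, an antimicrobial peptide of neutrophil granules, was at 17 and 6.34 CPM with NIK alone and 0 and 0 CPM with both alleles, an at least 129.5-fold lower level against a floor of 3 counts over the group (adjusted p = 0.00443). Elane was also without a count in both NIK + Notch2 libraries. When the 4 compared libraries were fitted alone, Elane was not called (adjusted p = 0.0817). Elane lost its call without NIK library 1 or NIK + Notch2 library 2 (adjusted p = 0.05 to 0.052). S100a8 fell from 73.9 and 21.6 CPM with NIK alone to 0.835 and 0 CPM with both alleles (log2 -6.72 ± 1.5, adjusted p = 0.0422). The fitted value of S100a8 rests on few counts, and was -5.83 without NIK + Notch2 library 2, which has none. The 10 markers that fell were higher in NIK library 1 than in NIK library 2 by a median ratio of 3.432. Macrophage and monocyte markers summed to 58.4 and 226 CPM in control, 231 and 162 CPM with NIK alone and 56 and 29.3 CPM with both alleles, and of 14 tested 0 rose and 4 fell (2 fell without NIK library 1, 1 without NIK + Notch2 library 1 and 0 without NIK + Notch2 library 2). T cell markers summed to 79.7 and 88.7 CPM with NIK alone and 81 and 63.3 CPM with both alleles (0 rose and 3 fell of 13 with all libraries, and 0 fell without NIK library 2 or NIK + Notch2 library 2). Erythroid markers summed to 74.9 and 31.8 CPM with NIK alone and 16 and 2.29 CPM with both alleles (0 rose and 1 fell of 5 tested, and 0 fell without NIK library 1 or NIK + Notch2 library 2). Of the other marker lists, 1 rose and 2 fell of 5 for B1 cells, 0 rose and 1 fell of 7 for dendritic cells and 0 rose and 1 fell of 2 for platelets. With any 1 of the 4 libraries left out, the rise of the B1 list and the fall of the dendritic list were lost, and the fall of the platelet list was lost without NIK library 1 or either NIK + Notch2 library. None of 6 natural killer, 4 plasma cell, 6 stromal, 2 endothelial and 4 sex-linked markers tested was called by edgeR, with 3 of these markers at an unadjusted p under 0.05 and 1, a plasma cell marker, called by DESeq2 and by limma-voom. In bulk RNA, fewer cells of a type and less RNA per cell cannot be told apart, and the part of these cells in other falls was not tested.

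Among abundant genes that rose, Rplp0, a ribosomal protein gene, rose from 2023 and 1797 to 2721 and 3014 CPM (log2 0.59 ± 0.10, adjusted p = 0.00229). Hsp90ab1, a constitutive chaperone gene, rose from 1808 and 1968 to 2861 and 3293 CPM (log2 0.70 ± 0.11, adjusted p = 0.00117). Among abundant genes that fell, Serinc3, a membrane protein gene, fell from 1752 and 1685 CPM with NIK alone to 1188 and 1053 CPM with both alleles (log2 -0.62 ± 0.08, adjusted p = 5.07e-04). Hvcn1, the proton channel of B cells, fell from 699 and 605 to 324 and 231 CPM (log2 -1.23 ± 0.17, adjusted p = 0.00176). Man1a, a glycan-trimming enzyme, fell from 895 and 899 to 585 and 489 CPM (log2 -0.74 ± 0.09, adjusted p = 3.32e-04). For Serinc3, Hvcn1 and Man1a the groups did not overlap. Of the 81 cytosolic ribosomal protein genes, a list chosen after values were seen, 14 rose and 1 fell, with a median of 0.23; between 2 and 9 rose with a library left out.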

How the data were processed

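RNA of sorted cells was sequenced in 10 libraries, 2 for each of 5 groups. Per the file headers, the authors deposited for each library the estimated counts of every transcript, not normalized, and their TPM, computed from counts and effective lengths. Per the submitters' processing notes, the tool was kallisto 0.44.0 and the build mm10; which transcript release was indexed is not given in the sources. Of 88198 transcripts, 86031 were matched to GENCODE M21 (GRCm38) and their estimated counts summed to 30205 genes and rounded; 1.313% to 1.377% of the counts of the 4 compared libraries were unmatched and left out, and 44 genes share a symbol with another. Genes were tested in edgeR 4.0.16 (R 4.3.3) after filterByExpr (minimum count 10, minimum total 15), which left 15583, with TMM scaling and 1 robust quasi-likelihood model of the 10 libraries in 5 groups (5 residual degrees of freedom, biological coefficient of variation 0.1205). Tests were two-sided. The code was checked on simulated data. The spread between the 2 libraries of a group exceeded counting error (chi-square per degree of freedom 7.365 with NIK alone and 9.831 with both alleles), so counting intervals understate it. Over genes, the deviations of same-numbered libraries of the 2 groups did not correlate (r = -0.0016). With 2 libraries a group this cannot show whether replicate numbers pair libraries.

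The comparison, the gene lists (24, with 14 marker lists) and the alternatives were chosen with earlier results of these data known, so the lists are not independent evidence of their direction. Genes named were the 12 largest changes each way (at least 5 CPM, no overlap, predicted genes, receptor segments and sex-linked genes left out), the 6 each way with the largest difference in CPM, members of 6 lists on Notch, zone and noncanonical NF-kB genes, and called members of the other lists, those keeping their call preferred. Promoters come from RefSeq (GRCm38.p6) by symbol, for 10977 tested genes. Alternatives were edgeR's RLE and library size scaling, other filters, DESeq2 1.42.0, limma-voom (limma 3.58.1), smaller fits, an effective length offset from TPM, receptor segments left out, a replicate block, and leaving out each of the 4 libraries. Some genes are not reported here.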

Additional observations from a re-analysis of the deposited data

How the results depend on the processing

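The effective length offset gave 1394 calls (695 rose, 699 fell). Leaving out 1 library gave 725 to 1710 calls (390 to 818 rose, 335 to 892 fell), the fewest without NIK + Notch2 library 2, where the lone library is assumed to vary like those of the other groups. Without both NIK library 1 and NIK + Notch2 library 2, a setting added after seeing the data, 434 genes were called (241 rose, 193 fell). A replicate block gave 1764 calls (844 rose, 920 fell), of which 1743 were calls without it. Whether replicate numbers pair libraries is not known. Calls under the other scalings, filters, tools and fits were 1527 to 2537. Of 2207 values of the 138 genes named, 1988 kept direction and call, 210 lost the call and 2 changed sign: Fcer2a, not called, was 0.0061 without NIK + Notch2 library 2 and 0.042 without NIK library 2, against -0.31 without NIK library 1. The cause of these differences was not tested.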

Other observations

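Other genes kept their call under all 15 alternative settings and belong to no list; they were chosen after their values were seen. Mybl2, a cell cycle factor related to Myb, rose from 17.2 and 11.1 to 49.3 and 49.9 CPM (log2 1.81 ± 0.15, adjusted p = 3.56e-05), with 16.8 and 18.6 CPM in control. Nab1, a corepressor of Egr factors, rose from 84.4 and 83.6 to 199.8 and 209 CPM (log2 1.28 ± 0.08, adjusted p = 3.03e-06), against 131 and 119 CPM in control. Ptger4, a prostaglandin receptor gene, rose from 3.77 and 4.77 to 34.7 and 62.3 CPM (log2 3.50 ± 0.28, adjusted p = 4.51e-05), against 22.3 and 17.2 CPM in control. Nfil3, a basic leucine zipper factor, rose from 1.05 and 1.57 to 9.19 and 15.4 CPM (log2 3.22 ± 0.32, adjusted p = 7.32e-05), with 0.984 and 1.74 CPM in control. Cd69, which holds lymphocytes in tissue by removing S1pr1 from the surface, rose from 29.9 and 34.9 to 132 and 199 CPM (log2 2.35 ± 0.22, adjusted p = 4.47e-04), against 53.7 and 39.2 CPM in control. Bst1, an ectoenzyme of early B cells, rose from 3.83 and 3.35 to 24.9 and 27.9 CPM (log2 2.88 ± 0.23, adjusted p = 1.38e-05), against 2.58 and 1.74 CPM in control. For Mybl2, Nab1, Ptger4, Nfil3, Cd69 and Bst1 both libraries with both alleles lay above all control and NIK libraries. Plaur, the urokinase receptor gene, rose from 37.1 and 35.7 to 91.6 and 115 CPM (log2 1.5 ± 0.11, adjusted p = 9.81e-06), with 132 and 137 CPM in control, and Fanca, a DNA repair gene, rose from 22 and 22.7 to 64.9 and 77.7 CPM (log2 1.67 ± 0.13, adjusted p = 1.72e-05), against 66.7 and 50.3 CPM in control, and for these the NIK libraries were the lowest.

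Falls of the same kind included genes whose level in control was near that with NIK alone. Trib2, a pseudokinase, fell from 32 and 33.1 to 6.29 and 5.76 CPM (log2 -2.43 ± 0.16, adjusted p = 5.71e-06), against 32.4 and 43.9 CPM in control. Lmo2, a transcriptional adaptor, fell from 132 and 141 to 58 and 63.9 CPM (log2 -1.16 ± 0.09, adjusted p = 1.43e-05), with 157 and 185 CPM in control. Smad1, a transducer of bone morphogenetic protein signals, fell from 5.4 and 5.66 to 0.724 and 0.654 CPM (log2 -2.99 ± 0.30, adjusted p = 7.15e-05), against 7.87 and 7.34 CPM in control. Sorl1, a sorting receptor, fell from 514 and 469 to 243 and 209.9 CPM (log2 -1.12 ± 0.09, adjusted p = 1.43e-05), against 621 and 682 CPM in control. Cd300lf, an inhibitory receptor gene, fell from 58.4 and 56.8 to 13 and 12.9 CPM (log2 -2.15 ± 0.14, adjusted p = 6.77e-06), with 62.2 and 43.7 CPM in control. In each of Trib2, Lmo2, Smad1, Sorl1 and Cd300lf both libraries with both alleles were below all 4 others. Nt5e, which encodes CD73, fell from 10.8 and 9.8 to 1.5 and 1.9 CPM (log2 -2.60 ± 0.24, adjusted p = 4.51e-05), against 4.49 and 4.73 CPM in control, and Dmxl2 fell from 24.6 and 25 to 3.67 and 2.75 CPM (log2 -2.93 ± 0.17, adjusted p = 2.2e-06), against 1.66 and 1.25 CPM in control; both were highest with NIK alone.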
